A study of Rattus norvegicus with 30 samples.

Results

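Cys1, Kprp, Galnt18 and Aoc1 are 4 genes whose messenger RNA (mRNA) was lower after induction than in undifferentiated rat bone marrow mesenchymal stem cells (BMSCs), and they were chosen by that fall in level from 0 h. They are 4 of 9999 gene names and 4 of the 4363 that passed the filter on low values, which asked for a CPM (the reads of a gene scaled to a common total) of 1 or more in 3 samples or more. Cys1, Kprp and Galnt18 each stood on 1 line of the tables, while Aoc1 stood on 2 lines that were summed. The 30 samples held 3 for undifferentiated cells (0 h) and 3 for each of 3, 12 and 72 h in osteogenic (OS), adipogenic (AD) and chondrogenic (CH) medium. All cells came from Sprague Dawley rats, female and 3 weeks old, were at passage 2, and were pooled from 3 cultures for each sample. There was no uninduced culture at 3, 12 or 72 h, so that the inducing factors, the change of medium and the time in culture cannot be told apart. These were bulk samples, so fewer cells that use a gene and less of its mRNA per cell cannot be told apart either.

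The working name of the set, genes lost on leaving the undifferentiated state, went against the data for 3 of the 4. At 72 h of OS the samples of Cys1 overlapped those at 0 h, Aoc1 reached 77.7% of its 0 h level at 72 h of CH, and Galnt18 still stood at 61.0 to 87.5% of its 0 h level at 3 h. Kprp stood at no more than 26.7% of its 0 h mean in any induced sample. The genes are therefore called by their own names here.

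The 4 proteins belong to unrelated processes. Cystin 1, from Cys1, is a lipid-anchored protein of the primary cilium, the sensory antenna of most resting cells, and its loss in mice gives polycystic kidneys. Kprp encodes the keratinocyte proline-rich protein, whose gene lies in the epidermal differentiation complex, a cluster of genes that are known for building the outer layer of skin. Galnt18 belongs to the family of polypeptide N-acetylgalactosaminyltransferases, which start mucin-type O-glycosylation by placing the first sugar on serine or threonine. Aoc1 encodes diamine oxidase, a secreted copper amine oxidase that breaks down histamine and putrescine and is best known from gut, kidney and placenta.

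The 250 bases upstream of the start are shown for the 3 members that have a RefSeq promoter entry of assembly GRCr8. Because the 4 genes were picked together, a fixed set of short motifs was looked for there. Capitals mark matches, on either strand, to the GC box GGGCGG, the TATA box TATAAA or its variant TATATAA. The stretches lie at chr6:47046672-47046921 on the minus strand for Cys1, at chr2:181129829-181130078 on the minus strand for Kprp and at chr4:79142876-79143125 on the plus strand for Aoc1. Galnt18 is named only.
Cys1: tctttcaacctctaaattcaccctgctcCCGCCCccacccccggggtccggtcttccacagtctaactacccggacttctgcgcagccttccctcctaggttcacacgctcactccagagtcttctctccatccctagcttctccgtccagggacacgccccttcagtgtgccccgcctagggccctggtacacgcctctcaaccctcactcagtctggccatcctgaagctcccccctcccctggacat
Kprp: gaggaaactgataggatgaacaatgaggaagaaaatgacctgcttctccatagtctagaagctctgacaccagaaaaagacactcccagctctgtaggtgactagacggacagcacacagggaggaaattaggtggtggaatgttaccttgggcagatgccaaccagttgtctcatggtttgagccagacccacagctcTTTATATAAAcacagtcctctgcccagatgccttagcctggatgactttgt
Aoc1: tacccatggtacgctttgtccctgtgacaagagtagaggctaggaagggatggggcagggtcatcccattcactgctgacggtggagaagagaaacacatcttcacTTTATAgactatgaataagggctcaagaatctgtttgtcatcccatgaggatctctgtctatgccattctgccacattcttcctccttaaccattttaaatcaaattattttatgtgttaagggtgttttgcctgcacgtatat

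The 3 stretches differed in composition. G and C made up 61.6% of the Cys1 stretch, 47.6% of the Kprp stretch and 43.2% of the Aoc1 stretch, against a median of 51.2% over 33469 rat promoters. The Kprp stretch held TATAAA 47 bases before the start, overlapped by TATATAA and by matches on the other strand. TATAAA occurred in 12.9% of all 33469 stretches and TATATAA in 3.42%. In the Aoc1 stretch the single TATAAA match lay 144 bases before the start. The Cys1 stretch held GGGCGG, read on the other strand, 222 bases before the start, as did 30.5% of all stretches somewhere in their length. No motif of the fixed set was found in all 3 stretches. The letters CCAAT (34.0% of all), TGANTCA (6.34%), AGAACA (17.5%) and CACGTG (5.59%) were in none of them. Other shared motifs were not searched for.

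The read totals behind the CPM values ranged from 3899609 to 9046719 per sample, so that 3 reads, the floor used here, stood at 0.332 to 0.769 CPM. Of the 11 BMSC markers, 8 were listed, 4 of them above the floor in all 0 h samples, while Vcam1 was at 0 there and Vim and Eng, which these cells are known to express, stood at 0.243 and 0.0477 CPM in the mean. A marker near 0 in these tables thus does not show that a cell type was missing. Nor does a level near 0 of a gene in the lists below show that it was not expressed. The summed BMSC markers ranged from 16086 to 16893 CPM at 0 h and from 4112 to 23219 CPM after induction. In the 0 h samples the 4 listed haematopoietic markers summed to at most 0.557 CPM, the 4 listed keratinocyte markers (Krt10, Krt14, Epcam and Cdh1) were all at 0, and the 7 listed markers of kidney or gut epithelium summed to at most 0.143 CPM. The 3 listed endothelial markers summed to 3.34 to 4.74 CPM at 0 h, of which Vwf made up 3.49 CPM in the mean, and to 0.740 to 7.08 CPM after induction. After induction the keratinocyte markers summed to at most 0.578 CPM and the kidney or gut markers to at most 2.95 CPM. The part of these markers in the results was not tested.

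Among the libraries, 3 stood apart from the other replicates of their groups. AD 12 h replicate 1 had 24 genes more than 2 log2 units from the mean of the other replicates, AD 72 h replicate 3 had 74 and OS 3 h replicate 3 had 18. The group nearest to AD 12 h replicate 1 after its own was OS 12 h. Its Kprp level was 23.8 times and its Galnt18 level 1.99 times the mean of the other AD 12 h samples. The called differences of the 4 genes that involve AD at 12 or 72 h, and all differences of Kprp that moved, are therefore given with and without the 2 AD libraries, a choice made after their values were seen. The AD values of the other genes named include them.

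The groups on which each gene was picked are not recorded, and those in which its fall from 0 h was among the 3 largest of 4363 were treated as such, a limit set after the data were seen. These were OS and AD 3 h for Cys1, the 3 AD groups and CH 72 h for Kprp, and OS 72 h for Galnt18 and Aoc1. Just inside the limit was Aoc1 at OS 72 h (rank 3, -4.88), and just outside were Cys1 at OS 12 h (rank 4, -3.83) and Kprp at CH 12 h (rank 4, -4.18). Comparisons with 0 h, and comparisons between induced groups that include such a group, are given as levels without a test. In all, 35 of the 36 induced groups, 9 for each gene, lay with all samples below all 0 h samples. Over the same 9 comparisons 6.27% of all genes and comparisons were called lower by the test described below, a stricter measure than samples lying apart. The share of all genes with samples apart was not computed. Since the genes were chosen by their fall from 0 h, nothing is read from the count. The median log2(CPM + 1) difference from 0 h over the 9 groups was -2.79 for Cys1, -4.18 for Kprp, -2.55 for Galnt18 and -2.98 for Aoc1.

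**Figure D1:**
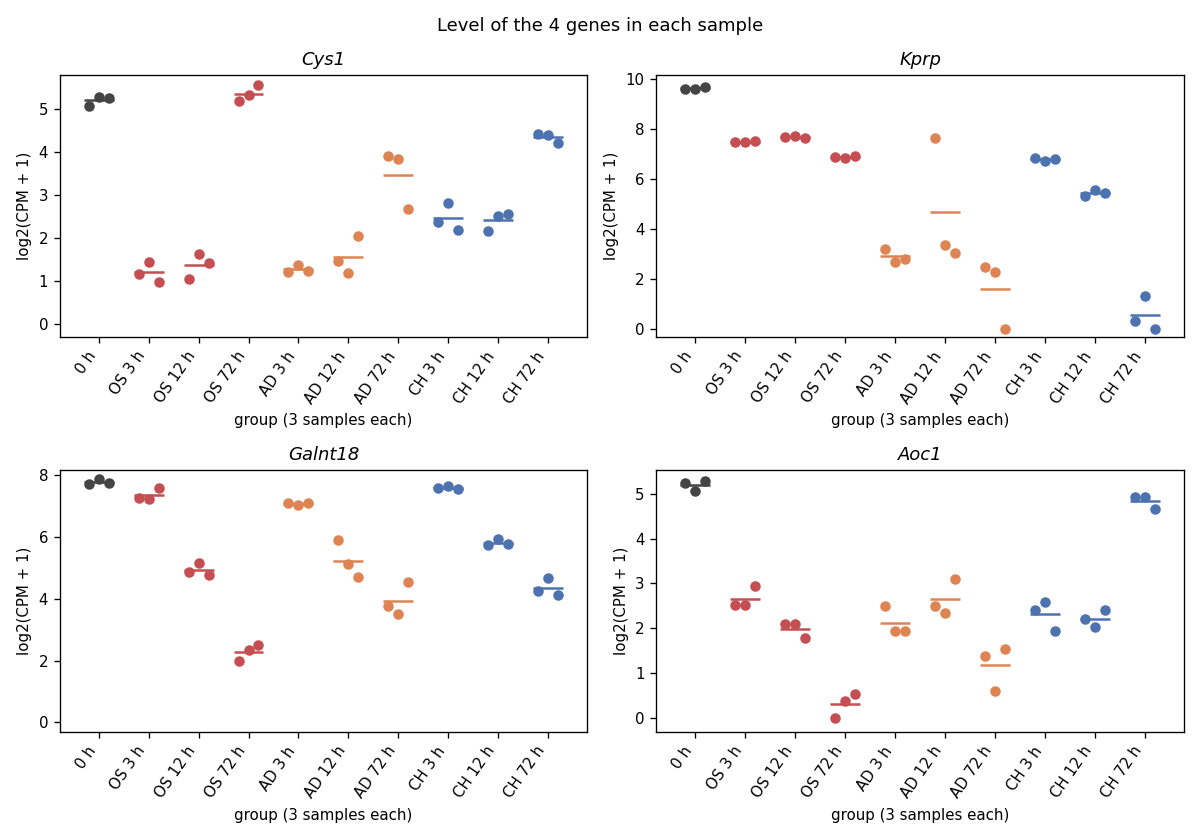
Levels of Cys1, Kprp, Galnt18 and Aoc1 as log2(CPM + 1) in each of the 30 samples, with 1 panel for each gene. Points are samples, horizontal lines are the means of 3 samples, and colours mark 0 h, OS, AD and CH. The OS 72 h samples of Cys1 overlap its 0 h samples, Aoc1 is close to them at CH 72 h, and 1 AD 12 h sample of Kprp lies among the OS samples.

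Comparisons with no 0 h sample and no group treated as used in picking the gene were tested with limma. Since the groups used in picking are not recorded, some of the tested groups may have been among them. Benjamini-Hochberg adjustment ran over all 4363 genes. A difference was called at an adjusted p under 0.05 and a log2(CPM + 1) difference of at least 1 in size. The authors took cells from 3 rats and describe 3 independent experiments, but nothing says that the 3 samples of a group came from separate rats. The p-values therefore measure the spread between these samples. Between lineages at the same time, 5 of 22 tested pairs of gene and comparison were called, 4 higher and 1 lower in the first-named lineage, where 14.1% of all genes were called over the same comparisons. Between consecutive times within a lineage, 10 of 17 tested pairs were called, 4 higher and 6 lower at the later time, where 12.6% of all genes were called. In the 14 lineage pairs left untested, the sample ranges were apart in 11. In the 7 untested time pairs they were apart in 4. The share of all genes with ranges apart in the same comparisons was not computed. Each untested pair includes a group treated as used in picking the gene, so nothing is read from these counts.

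Between lineages at 3 h limma called 0 of 7 tested pairs, where 7.66% of all genes were called for OS against AD, 7.31% for OS against CH and 9.35% for CH against AD. Of these 7 pairs 1 had an unadjusted p under 0.05, and edgeR and DESeq2 called 0, with no adjusted p for Kprp in DESeq2. At 12 h limma called 0 of 6 pairs for OS against AD (13.2% of all genes) and CH against AD (13.6%), 3 with an unadjusted p under 0.05, while edgeR and DESeq2 each called 1, Cys1 higher in CH than in AD. For OS against CH at 12 h, 1 of 4 was higher (8.87% of all genes) and 1 of 4 lower (7.08%). At 72 h, 1 of 1 tested was higher in OS than in AD (9.21%), 1 of 1 higher in OS than in CH (8.55%) and 1 of 3 higher in CH than in AD (16.5%). From 3 to 12 h, 1 of 3 was lower in OS (3.12% of all genes), 1 of 2 lower in AD (7.82%) and 1 of 4 lower in CH (5.94%), and the gene was Galnt18 each time. From 12 to 72 h, 1 of 2 was higher in OS (9.67%), 1 of 3 was higher (5.18%) and 2 of 3 lower (10.8%) in AD, and 2 of 3 were higher (7.98%) and 1 of 3 lower (5.23%) in CH.

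**Figure D2:**
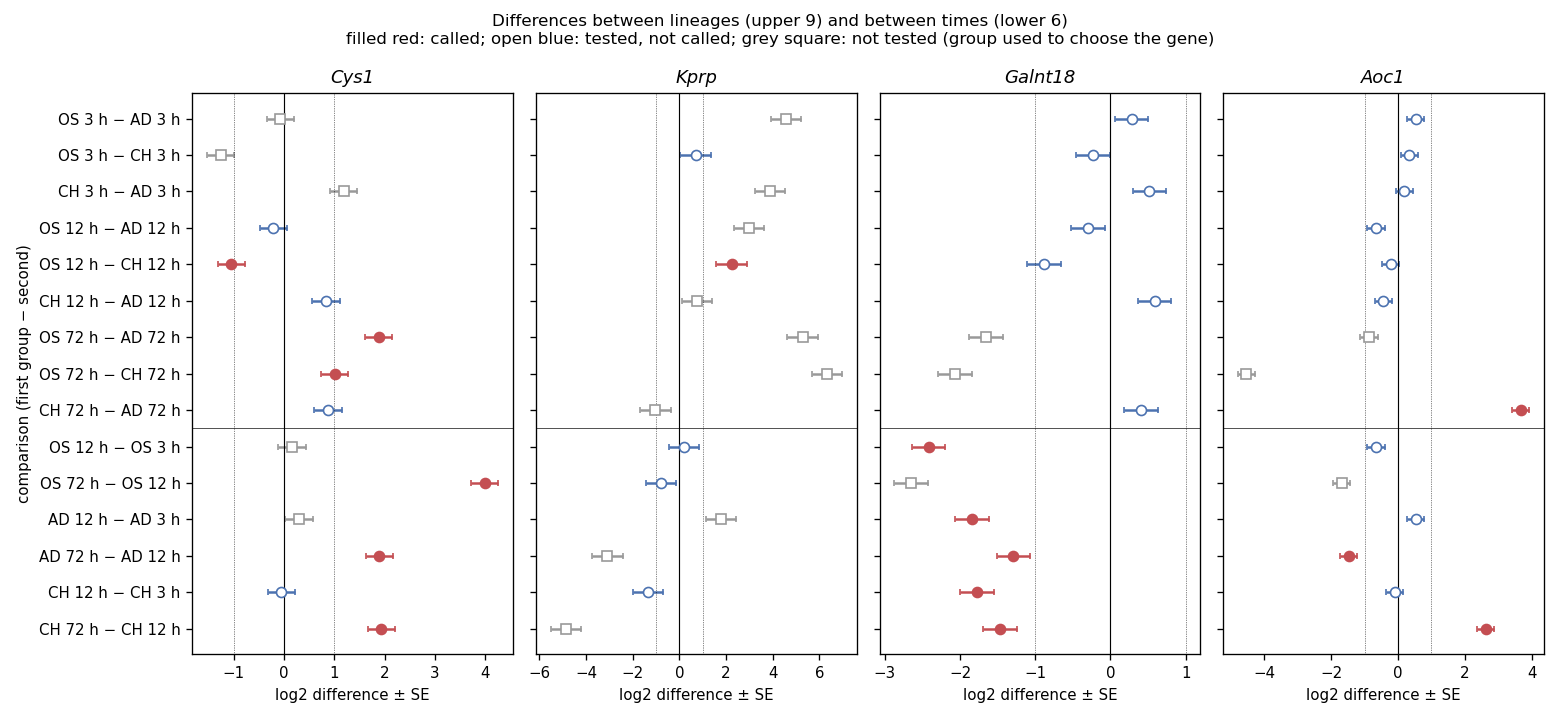
Differences in log2(CPM + 1) with their standard errors (SE) for the 9 comparisons between lineages and the 6 between times, with 1 panel for each gene and its own horizontal scale. Filled red circles were called, open blue circles were tested and not called, and grey squares were not tested because a group was treated as used in picking the gene. All 5 tested time steps of Galnt18 lie left of -1, while the called steps of Cys1 lie right of 1.

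Cys1 fell early and came back. In the 0 h samples it stood at 32.4, 37.9 and 36.8 CPM. At 3 h it was at 1.25, 1.74 and 0.968 CPM in OS, at 1.33, 1.57 and 1.34 CPM in AD and at 4.20, 6.02 and 3.56 CPM in CH. The 3 CH samples lay above all OS and AD samples, which overlapped. At 12 h the levels were 1.05, 2.09 and 1.68 CPM in OS, 1.76, 1.29 and 3.15 CPM in AD and 3.47, 4.67 and 4.91 CPM in CH, so CH again lay above the other lineages.

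By 72 h Cys1 was higher in every lineage than at 12 h. It stood at 35.2, 39.2 and 46.3 CPM in OS, at 13.9, 13.3 and 5.39 CPM in AD and at 20.5, 20.1 and 17.6 CPM in CH. Thus the OS samples overlapped those at 0 h, while the means of CH and AD stood at 54.3% and 30.4% of the 0 h mean of 35.7 ± 2.93 CPM (SD, n = 3). The step from 12 to 72 h was a rise of 3.99 ± 0.27 (log2 difference ± SE) in OS (limma, adjusted p = 2.00e-13), 1.90 in AD (limma, adjusted p = 1.06e-06) and 1.94 in CH (limma, adjusted p = 1.08e-06). These are 3 called of 4 tested time pairs of Cys1, and 15.0% of all genes were called over those comparisons. The fourth, CH from 3 to 12 h, differed by -0.05 with an adjusted p of 0.942 from limma.

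The rise was larger in OS than in the other lineages. The OS step exceeded the AD step by 2.09 ± 0.38 (limma interaction contrast, adjusted p = 0.000143) and the CH step by 2.06 ± 0.38 (adjusted p = 9.14e-05), in tests that called 14.2% and 22.5% of all genes. For the CH and AD steps the difference was 0.04 ± 0.38, which limma did not call. At 72 h Cys1 was accordingly higher in OS than in AD by 1.89 (limma, adjusted p = 2.01e-06) and than in CH by 1.01 (limma, adjusted p = 0.00327). At 12 h it was lower in OS than in CH by a log2 difference of -1.05 (limma, adjusted p = 0.00258). These were 3 calls in 6 tested lineage pairs, against 16.9% of all genes.

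Some of the Cys1 calls sat near the size threshold. OS against CH at 12 h fell to between -0.999 and -0.88 without OS 12 h replicate 1, CH 12 h replicate 2 or CH 12 h replicate 3, and OS against CH at 72 h fell to 0.91 without OS 72 h replicate 3 and to 0.94 without CH 72 h replicate 3. The former was -0.99 with quantile normalization, and the latter 0.89 with median-ratio scaling, 0.95 with edgeR and 0.93 with DESeq2. CH exceeded AD by 0.84 at 12 h and by 0.88 at 72 h, under the threshold. The 12 h difference passed it with a pseudocount of 0.1 (1.12), edgeR (1.06), DESeq2 (1.10) or without AD 12 h replicate 3 (1.08). The 72 h difference passed it without AD 72 h replicate 1 (1.09) or 2 (1.06). Without AD 72 h replicate 3, a library that stood apart, the 72 h difference shrank to 0.48 (limma, adjusted p = 0.135). In the order of the 10 group means, 6 of 9 neighbours had overlapping samples, and the gaps lay between 0 h and CH 72 h, between CH 72 h and AD 72 h and between CH 12 h and AD 12 h. Leaving out both AD libraries that stood apart gave an AD step of 2.24, an excess of the OS step of 1.75 and an OS level at 72 h higher than that of AD by 1.49, and ended no Cys1 call. The CH step less the AD step went from 0.04 to -0.31, uncalled both times.

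Of other genes of the cilium, 2 were called against 0 h. This list and the 3 for the other genes were drawn up with earlier results of these data known, so their calls against 0 h are a description and not independent evidence. In a list of 48 genes for the primary cilium and cystin partners, 16 were in the tables and 11 passed the filter. Over the 9 comparisons with 0 h, 5 of 99 pairs were called, all lower (5.05%, where 6.27% of all genes and comparisons were called lower), and 0 higher (10.5% of all). For 5 of the 11 genes the 0 h mean was under 1 CPM. The limma count of 5 came out at 9 with edgeR and at 9 with DESeq2. Nek8, a kinase of the cilium base whose mutation gives cystic kidneys, stood at 17.0 ± 1.37 CPM at 0 h and at 8.45 ± 4.43 CPM in OS, 3.81 ± 0.447 CPM in AD and 5.17 ± 0.892 CPM in CH at 3 h. At 12 h it stood at 15.2 to 21.7 CPM. Unc119, which ferries lipid-anchored proteins and binds cystin, fell in AD, with log2 differences from 0 h of -1.57 at 12 h and -2.25 at 72 h (limma, adjusted p = 1.06e-06 and 1.04e-09).

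Kprp fell far in AD and, by 72 h, in CH, and kept part of its level in OS. It stood at 772, 767 and 811 CPM at 0 h. In OS it was at 175, 179 and 180 CPM at 3 h, at 200, 209 and 199 CPM at 12 h and at 117, 114 and 119 CPM at 72 h. All 9 OS samples thus kept 14.5 to 26.7% of the 0 h mean, with SDs of at most 5.56 CPM.

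In CH Kprp fell at each time. The samples were at 114, 103 and 111 CPM at 3 h, at 38.4, 46.1 and 42.5 CPM at 12 h and at 0.256, 1.55 and 0 CPM at 72 h. The last group held 1, 7 and 0 reads, against 5348 to 5504 reads in each 0 h sample. With reads pooled over the group the level was 1264-fold lower than at 0 h, with an exact 95% counting interval of 641 to 2928 that covers counting error only.

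In AD Kprp was already low at 3 h, at 8.18, 5.51 and 6.10 CPM, or 0.842% of the 0 h mean. At 12 h it was at 197, 9.39 and 7.22 CPM, and at 72 h at 4.63, 3.90 and 0 CPM. The AD 12 h sample at 197 CPM, replicate 1, lay next to the OS 12 h samples, and the AD 72 h sample at 0, replicate 3, is the other AD library that stood apart. Without replicate 1 the AD 12 h mean was 8.30 CPM, or 1.06% of the 0 h mean in place of 9.10%. The cause of the difference between the AD 12 h samples was not tested.

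These 2 libraries widened the errors of Kprp in the joint fit. The SE of its differences between lineages or times was 0.65 log2 units with them, and without them 0.19 where AD at 12 or 72 h was not involved and up to 0.23 where it was. Only 5 Kprp comparisons between lineages or times, and 1 between steps, involved no group treated as used in picking the gene. Kprp was higher in OS than in CH at 12 h by 2.24 ± 0.65 (limma, adjusted p = 0.00727), the 1 call in 2 tested lineage pairs, where 11.6% of all genes were called. With a pseudocount of 0.1 its adjusted p was 0.0834 (limma), and DESeq2 gave it none. In 3 tested time pairs limma called 0 (12.9% of all genes), with 1 at an unadjusted p under 0.05, and edgeR called 0. Without both libraries the fall in CH from 3 to 12 h, -1.36, was called as well (limma, adjusted p = 1.56e-06, against 0.150 with them), and it was also called without AD 12 h replicate 1 alone and, with no library left out, in a fit on the 6 samples of the comparison (limma, adjusted p = 0.000101). The OS step from 3 to 12 h exceeded the CH step by 1.54, uncalled with all libraries (limma interaction contrast, adjusted p = 0.257) and called without both (adjusted p = 4.23e-05) or without AD 12 h replicate 1 alone (adjusted p = 0.0241). The samples of OS lay above those of CH at 3 h by 0.69 in the mean log2, and within OS the level at 72 h was -0.79 from that at 12 h. Neither reached the size threshold with or without both libraries.

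The remaining Kprp differences are descriptions. OS exceeded AD by 4.57 at 3 h, and at 12 h by 2.99 with and 4.46 without AD 12 h replicate 1 and AD 72 h replicate 3. At 72 h OS exceeded AD by 5.28 with and 4.48 without them, and CH by 6.32. The AD step from 3 to 12 h was 1.77 with the libraries and 0.30 without, and the AD step from 12 to 72 h was -3.09 with and -0.81 without them. CH exceeded AD by 0.75 in the mean log2 at 12 h with them, with overlapping samples and CPM means in the other order, and by 2.23 without. At 72 h the difference of CH from AD was -1.04 with them and -1.83 without. The order of the lineages was thus OS above CH above AD at 3 h, the same at 12 h once AD 12 h replicate 1 was left out, and OS above AD above CH in the means at 72 h, where AD and CH overlapped as long as AD 72 h replicate 3 was kept.

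**Figure D3:**
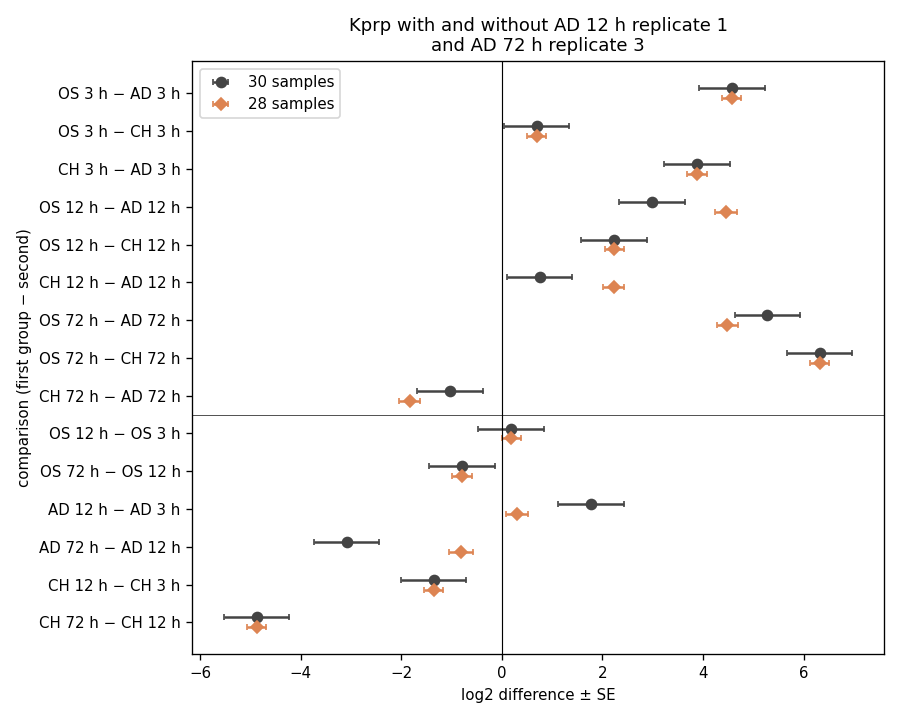
Kprp differences in log2(CPM + 1) with SE for the 9 comparisons between lineages and the 6 between times, fitted on all 30 samples (grey circles) and without AD 12 h replicate 1 and AD 72 h replicate 3 (orange diamonds). The AD step from 12 to 72 h moves from -3.09 to -0.81, OS minus CH at 12 h stays at 2.24, and its error shrinks from 0.65 to 0.19.

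Other genes of the epidermal differentiation complex and cornified envelope were counted against 0 h in the same way. Of 52 listed genes 18 were in the tables and 8 passed the filter. They gave 24 calls in 72 pairs with 0 h, 20 higher (27.8%, where 10.5% of all genes and comparisons were called higher) and 4 lower (5.56%, against 6.27%), and with a pseudocount of 0.1 the 24 calls became 39. Of the 8 genes, 5 had a 0 h mean under 1 CPM, from which no fall of 1 on this scale is possible, and they gave 14 of the 20 higher calls, so nothing is read from the direction of the count. Dsp, the desmosomal plaque protein desmoplakin, stood at 1.48 ± 1.10 CPM at 0 h and at 13.6 ± 0.812 CPM at 12 h of OS. S100a7a, a small calcium-binding protein of inflamed skin, was at 0 in all 0 h samples and at 12.0 ± 0.546 CPM at 12 h of OS. Evpl, the cornified envelope protein envoplakin, rose from 0.429 ± 0.232 CPM to 10.04 ± 1.20 CPM at 72 h of OS. Tgm5, a transglutaminase of the epidermis, rose from 0.657 ± 0.629 CPM to 4.74 ± 1.71 CPM at 72 h of CH, and Sprr1a, a small proline-rich protein of the cornified envelope, from 0.246 ± 0.181 CPM to 2.77 ± 1.40 CPM at 12 h of OS.

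The 4 lower calls fell on S100 genes of the complex. S100a4, a calcium-binding protein common in fibroblasts, stood at 4812 ± 403 CPM at 0 h and fell to 1336 ± 643 CPM at 72 h of AD and 645 ± 74.0 CPM at 72 h of CH. At 72 h of OS it stood at 5403 ± 255 CPM, above the levels in AD and CH. S100a16, named after its values were seen, made up the other lower calls, with log2 differences of -1.01 at 12 h and -1.02 at 72 h of AD, where its samples overlapped those at 0 h, and it was called higher at 3 h of OS (1.07).

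Galnt18 fell step by step in every lineage. It stood at 209, 235 and 212 CPM at 0 h. At 3 h it was at 152, 148 and 189 CPM in OS, at 135, 130 and 134 CPM in AD and at 190, 199 and 185 CPM in CH. All 9 samples were below the 0 h samples, by -0.43 in OS, -0.71 in AD and -0.19 in CH on the log2 scale, so that 915, 475 and 1105 were its ranks among the falls of 4363 genes.

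The larger part of the fall came later. At 12 h Galnt18 was at 28.3, 34.7 and 26.2 CPM in OS, at 58.1, 33.5 and 24.8 CPM in AD and at 52.7, 60.1 and 53.4 CPM in CH. At 72 h it was at 2.98, 4.06 and 4.67 CPM in OS, at 12.6, 10.3 and 22.3 CPM in AD and at 18.2, 24.3 and 16.2 CPM in CH. The OS samples at 72 h, at 1.79% of the 0 h mean, lay below all AD and CH samples, which stood at 6.90% and 8.96% and overlapped. That overlap came from AD 72 h replicate 3 alone, a library that stood apart. CH exceeded AD by 0.41 with it and by 0.71 without it, neither called.

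Between 3 and 12 h Galnt18 decreased by 2.42 ± 0.22 in OS (limma, adjusted p = 1.25e-09), by 1.84 in AD (limma, adjusted p = 1.33e-07) and by 1.77 in CH (limma, adjusted p = 4.14e-07). Between 12 and 72 h it decreased by 1.29 in AD (limma, adjusted p = 2.04e-05) and by 1.47 in CH (limma, adjusted p = 4.20e-06), and the untested OS step was -2.65. All 5 tested time pairs were called lower, against 6.58% of all genes. The AD step from 12 to 72 h was -0.96 without AD 12 h replicate 1, under the size threshold, and -1.27 without both AD libraries that stood apart, where the AD step from 3 to 12 h was -2.17. It was also under the threshold with each of 3 other scalings (-0.96 to -0.87), with edgeR (-0.98) and with DESeq2 (-0.87), and in a fit on its 6 samples alone the adjusted p of limma was 0.0698.

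Of the 7 lineage pairs tested for Galnt18, limma called 0 (13.2% of all genes), with 3 at an unadjusted p under 0.05, and edgeR and DESeq2 called 0. OS against CH at 12 h had samples apart at -0.88 (limma, adjusted p = 0.00211), and it was called with quantile normalization (-1.03) and when every sample was scaled to an equal sum of its listed genes (-1.01). OS 72 h, a group treated as used in picking the gene, was -2.07 from CH, and -1.66 from AD with and -1.35 without both AD libraries. OS against AD at 12 h was -0.30 with them and turned to 0.03 without, neither called. In the comparisons of the steps between lineages, the 3 tested for 3 to 12 h differed by -0.65 to 0.07. The CH step from 12 to 72 h differed from the AD step by -0.18, and limma called none of these 4. Without AD 12 h replicate 1, the 3 to 12 h step of OS less that of AD was -0.25, and that of CH less that of AD 0.40, both uncalled. Over all genes the 3 to 12 h tests called 11.1% for OS against AD, 14.1% for OS against CH and 14.3% for CH against AD. In the order of the 10 group means, the groups followed time before lineage, with all 3 h groups above all 12 h groups and these above all 72 h groups, and 4 of 9 neighbours overlapped.

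Within its own family, Galnt14 had the course closest to that of Galnt18, and other members differed from it. Of 34 genes for mucin-type O-glycosylation 15 were in the tables and 9 passed the filter. They gave 24 calls in 81 pairs with 0 h, 13 higher (16%, against 10.5% of all) and 11 lower (13.6%, against 6.27%), and 4 genes with a 0 h mean under 1 CPM gave 6 of the 13 higher calls. Galnt14, another transferase of the family, stood at 20.1 ± 0.966 CPM at 0 h and at 0.402 ± 0.227 CPM in OS, 1.88 ± 1.22 CPM in AD and 2.33 ± 0.903 CPM in CH at 72 h, a log2 difference of -3.93, -2.99 and -2.70. At 3 h it stood at 35.2 to 43.2 CPM, above its 0 h level, and in CH that rise was called.

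Galnt10 went the opposite way in CH. It rose in CH from 100.4 ± 3.98 CPM at 0 h to 360 ± 25.4 CPM at 3 h. It then stood at 458 ± 78.6 CPM at 12 h and 592 ± 35.1 CPM at 72 h of CH. The early rise was not particular to CH, as Galnt10 was also called higher at 3 h of OS (385 ± 159 CPM) and AD (261 ± 21.5 CPM). At 72 h it stood at 173 ± 8.43 CPM in OS and 51.6 ± 3.83 CPM in AD, neither called. Galnt16 stood at 246 ± 16.02 CPM at 0 h, at 768 ± 57.1 CPM at 72 h of CH and at 94.8 ± 48.4 CPM at 72 h of AD, both called. Galnt5 rose from 0.0477 CPM to 19.2 ± 1.73 CPM at 72 h of CH. St6galnac1, a sialyltransferase that caps the first sugar, fell from 2.67 ± 1.05 CPM to 0.0498 CPM at 12 h of OS, and Galnt3 was called higher at 72 h of AD and CH at levels of at most 4.07 CPM in the mean.

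**Figure D4:**
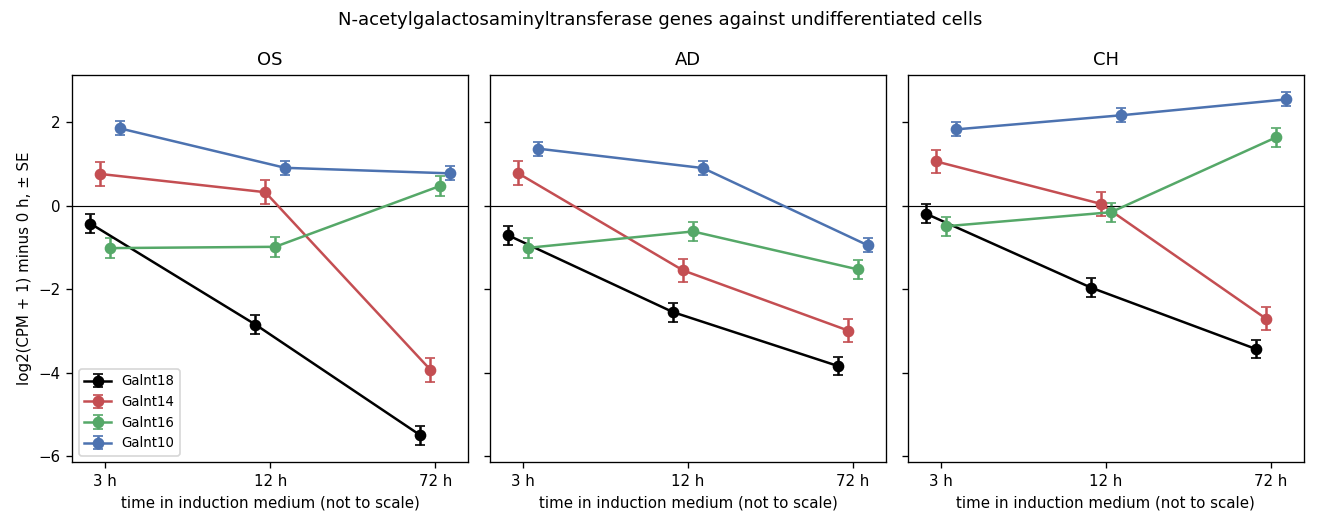
Log2(CPM + 1) difference from 0 h with SE of Galnt18, Galnt14, Galnt16 and Galnt10 at 3, 12 and 72 h in OS, AD and CH, with times evenly spaced. Galnt18 lies below 0 at every point and lowest at 72 h of OS (-5.50), Galnt14 lies above 0 at 3 h and below it at 72 h, and Galnt10 reaches 2.55 at 72 h of CH.

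Aoc1 stayed low in OS and AD and returned in CH. It stood at 37.0, 32.5 and 37.6 CPM at 0 h. At 3 h it was at 4.70, 4.74 and 6.64 CPM in OS, at 4.64, 2.83 and 2.83 CPM in AD and at 4.35, 4.99 and 2.83 CPM in CH. At 12 h it was at 3.31, 3.29 and 2.44 CPM in OS, at 4.68, 4.05 and 7.59 CPM in AD and at 3.61, 3.12 and 4.28 CPM in CH. All samples at 3 and 12 h lay between 2.44 and 7.59 CPM, and the group means stood at 8.45 to 15.2% of the 0 h mean.

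At 72 h the lineages had parted. Aoc1 was at 29.5, 29.4 and 24.2 CPM in CH, at 1.60, 0.532 and 1.90 CPM in AD and at 0, 0.312 and 0.452 CPM in OS. The 3 OS samples held 0, 2 and 3 reads, at or under the floor, and their pooled level was 141-fold lower than at 0 h, with an exact 95% counting interval of 59.99 to 434. The 72 h samples of the 3 lineages did not overlap, and all CH samples remained under all 0 h samples.

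From 12 to 72 h Aoc1 rose by 2.62 ± 0.26 in CH (limma, adjusted p = 2.26e-09) and fell by 1.47 in AD (limma, adjusted p = 2.80e-05). These were 2 calls in 5 tested time pairs, against 11.5% of all genes. At 72 h it was higher in CH than in AD by 3.66 (limma, adjusted p = 6.27e-13), the 1 call in 7 tested lineage pairs, against 13.2% of all genes. The CH step exceeded the AD step by 4.09 ± 0.37 (limma interaction contrast, adjusted p = 3.53e-10), in a test that called 19.3% of all genes. Without both AD libraries that stood apart, the AD step was -1.72, the 72 h difference 3.84 and the difference of steps 4.34, all called. OS at 72 h, untested for the same reason, was -4.53 from CH and -0.87 from AD, and its step from 12 h was -1.69.

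At the earlier times the differences were small. Of the 6 lineage pairs at 3 and 12 h limma, edgeR and DESeq2 called 0, with 1 at an unadjusted p under 0.05 in limma and differences of -0.65 to 0.53. The OS step from 3 to 12 h was -0.66 and the AD step 0.52, and their difference of -1.18 ± 0.37 was called (limma interaction contrast, adjusted p = 0.0237, where 11.1% of all genes were called). It was no longer called without AD 3 h replicate 2 (-1.09), AD 3 h replicate 3 (-1.09), AD 12 h replicate 3 (-0.96), OS 3 h replicate 3 (-1.04) or OS 12 h replicate 3 (-1.08), nor with a pseudocount of 0.1 (limma, adjusted p = 0.139). Without both AD libraries that stood apart it was -1.25 and called. In the order of the group means, 5 of 9 neighbours overlapped, all between AD 12 h and OS 12 h.

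The second Aoc1 line of the tables held 4 reads in all, in 2 samples, so the sum rested on the first line with 1621 reads. RefSeq lists a pseudogene of Aoc1 and the related genes Doxl1 and Doxl2 beside it, and how reads shared between such copies were counted is not given in the sources used here. Doxl2 was at no more than 0.151 CPM in any induced group mean. The Aoc1 levels are uncertain to that extent.

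Genes of amine and polyamine metabolism were counted likewise. Of 37 listed genes 19 were in the tables and 11 passed the filter, with 19 calls in 99 pairs with 0 h, 16 higher (16.2%, against 10.5% of all) and 3 lower (3.03%, against 6.27%). Here 3 of the 11 genes had a 0 h mean under 1 CPM and gave 8 of the 16 higher calls, so nothing is read from the direction. Amd1, which makes the aminopropyl donor for polyamine synthesis, rose from 164 ± 12.5 CPM to 715 ± 20.1 CPM in OS, 462 ± 37.5 CPM in AD and 492 ± 15.1 CPM in CH at 3 h. At 72 h it stood at 130 to 169 CPM. Srm, spermidine synthase, rose from 0.978 ± 0.490 CPM to 4.07 to 6.13 CPM at 3 h, and Odc1, ornithine decarboxylase, from 0.784 ± 0.472 CPM to 3.41 ± 0.379 CPM at 3 h of AD.

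Amine oxidases were also among the called genes. Maoa, a mitochondrial monoamine oxidase, stood at 354 ± 21.7 CPM at 0 h and fell to 159 ± 8.70 CPM at 12 h and 77.2 ± 5.57 CPM at 72 h of CH. Loxl3, a lysyl oxidase of the matrix, stood at 635 ± 30.6 CPM at 0 h, rose to 2382 ± 165 CPM at 72 h of OS and fell to 272 ± 26.8 CPM at 72 h of AD. Lox, the founding lysyl oxidase, rose from 29.7 ± 1.92 CPM to 84.7 ± 12.5 CPM at 12 h of CH.

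The 4 genes did not share a course. Over the 10 group means of log2(CPM + 1), the correlations among them ran from -0.40 for Cys1 with Galnt18 to 0.49 for Galnt18 with Aoc1, and over the 9 induced groups Cys1 and Galnt18 stood at -0.78. These are descriptions over groups that share 1 set of libraries, and the high 0 h values of all 4 genes enter the 10-group values.

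The tested genes most like each member over the 10 groups, by Pearson's r, were as follows. For Cys1 they were Def8 (0.95), Sema3a, Fam198a, Plbd2 and Hexa, with Hexa and Plbd2, both lysosomal proteins, the abundant ones at 829 and 559 CPM at 0 h. Kprp was closest to Sft2d1 (0.95), Ttc5, Rnf2, Pqlc3 and Pex14, whose levels spanned a much smaller range, with Sft2d1 between 47.8 and 80.6 CPM. Galnt18 was closest to Scube3 (0.95), Nsg1, Cpe, Galnt14 (0.89) and Pla2g7. Aoc1 was closest to H3f3c (0.90), Myh10, Cnnm2, Rgs16 and Zfp536.

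Over the 9 induced groups alone, the first gene for each member was Ifi30 for Cys1 (0.98), Pex14 for Kprp (0.96), Scube3 for Galnt18 (0.95) and AABR07054639.1 for Aoc1 (0.91). Nsg1, a neuronal endosome protein, ran from 372 CPM at 0 h to 14.4 CPM in its lowest group, a course near that of Galnt18. Myh10, a non-muscle myosin heavy chain, ran from 854 CPM to 13104 CPM among the groups and was at 7752 CPM at 0 h. Fam198a was among the 5 closest to Cys1 in both orders, Sft2d1, Rnf2 and Pex14 among the 5 closest to Kprp, and Scube3, Galnt14 and Nsg1 among the 5 closest to Galnt18, while Aoc1 had no gene in both.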

How the data were processed

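RNA of 30 samples in 10 groups of 3 was sequenced. Per the labels, the authors trimmed reads with Trimmomatic, aligned them with HISAT2 and assembled with StringTie; versions, genome build and strand setting are not given in the sources used here. The deposited values carry the name FPKM, but in every sample 100% of them were whole multiples of 1 step (tolerance 0.05 reads), so they are CPM (reads of a gene scaled to a common total by the authors) from which read counts could be recovered. The listed genes held 38.9 to 71.4% of a sample's reads, and the rest were not analysed here. Precision and floors (3 reads) cover counting error only.

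Lines of the same gene name were summed. Genes reaching 1 CPM in 3 samples or more entered the test as log2(CPM + 1) with limma 3.58.1 (trend, 1 model of 10 groups, R 4.3.3), with adjustment over 4363 genes. A pseudocount of 1 understates changes of low genes. Members in groups with at most 3 reads in all libraries on both sides got no call. Comparisons that include 0 h, or a group in which a gene's fall was among the 3 largest, were not tested for that gene. The members and lists were chosen with earlier results of these data known, so the calls of the lists are descriptions. Genes were named as members, as the 5 highest correlations of each, and as up to 6 called genes of largest change in each list. The limma and edgeR 4.0.16 fits were tried on simulated data first, and the DESeq2 1.42.0 fit was not.

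Alternatives were another pseudocount, no filter, 3 scalings, 6-sample fits, edgeR and DESeq2 on the recovered reads, a replicate block, each sample left out, and lines of the same name apart. Interaction contrasts, the limit that left comparisons of members untested, and the fit without 2 AD libraries were added after the data were seen. Promoters came from RefSeq, assembly GRCr8, with 3 of 4 members matched by symbol.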

Additional observations from a re-analysis of the deposited data

Results flagged for a closer look

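The size of a step between times was compared between lineages in 24 cases, of which 12 were tested and 4 called, where 11.1 to 22.5% of all genes were called in each of the 6 kinds of comparison. The other 12 include groups treated as used in picking the gene and were not tested. The rise of Cys1 from 12 to 72 h was larger in OS (3.99) than in AD (1.90), by 2.09 on the log2 scale (limma interaction contrast, adjusted p = 0.000143), and larger than in CH (1.94), by 2.06 (adjusted p = 9.14e-05). Every OS sample at 72 h was above every OS sample at 12 h, and the same held in AD and in CH. Aoc1 went in opposite directions from 12 to 72 h in CH (2.62) and AD (-1.47), a difference of 4.09 (limma interaction contrast, adjusted p = 3.53e-10). From 3 to 12 h Aoc1 moved by -0.66 in OS and by 0.52 in AD, a difference of -1.18 (limma interaction contrast, adjusted p = 0.0237), with overlapping samples in AD. This call was lost with a pseudocount of 0.1 (limma, adjusted p = 0.139) and without any 1 of 5 libraries. Among the untested cases, every Aoc1 sample at 72 h lay below every 12 h sample in OS and above every 12 h sample in CH, a difference in step of -4.31 with no test of the difference.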

How the results depend on the processing

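The 5 lineage calls and 10 time calls of the 4 genes came out at 4 to 6 and 9 to 10 under other scalings, filters, fits and count tests, and each replicate left out in turn gave 4 to 6 and 10. No called value changed sign. Of the uncalled, Galnt18 in OS against AD at 12 h went from -0.30 to 0.03 without AD 12 h replicate 1, and without AD 72 h replicate 3 the CH step from 12 to 72 h less the AD step went from 0.04 to -0.36 for Cys1 and from -0.18 to 0.12 for Galnt18. The lists moved more. Calls in the epidermal list rose from 24 to 39 with a pseudocount of 0.1. Calls in the cilium list rose from 5 to 8 when every sample was scaled to an equal sum of its listed genes, and to 9 with edgeR and to 9 with DESeq2. The median difference from 0 h was -2.86 in place of -2.55 for Galnt18 with quantile normalization. It was -3.25 with edgeR and -3.31 with DESeq2 in place of -2.79 for Cys1, and -3.48 and -3.52 in place of -2.98 for Aoc1, where edgeR and DESeq2 values lack the pseudocount of 1. The added fit without AD 12 h replicate 1 and AD 72 h replicate 3 gave 5 lineage and 11 time calls. On the recovered reads edgeR called 694 to 1172 genes in a comparison with 0 h, limma 545 to 952. Median-ratio scaling moved the median of all genes by up to 0.26 (AD 72 h against 12 h). Kprp had no adjusted p in DESeq2.

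With the replicate number as a block, 5 lineage and 10 time calls were made and no call changed. In 0 of 24 comparisons did every pair of same-numbered samples correlate above 0.1 in their deviations (-0.17 to 0.16). With 3 samples in a group this cannot settle whether same-numbered samples share a source.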
